A study of Homo sapiens with 8 samples.

Results

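The Hippo pathway genes NF2, SAV1, LATS1, LATS2, STK3, STK4, YAP1, WWTR1, CCN1 and CCN2 were examined in RNA recovered with biotinylated microRNA duplexes from 786-0 cells, an established human line from a clear cell renal carcinoma. These 10 genes were chosen by name as the pathway's kinases, effectors and targets, with earlier results of these data known. They were found by Ensembl ID among the 60666 genes of the count table. All 10 passed the filter on low counts that left 17351 genes for testing. Cells received a control microRNA duplex (3 libraries), miR-2355-5p (2 libraries) or miR-1271-5p (3 libraries) for 48 h, and the RNA captured with the biotin was sequenced. The design text gives triplicates, but 2 miR-2355 libraries were analysed here, so each miR-2355 value rests on n = 2. The 3 groups shared the line and the growth medium with serum, and carried no other treatment or allele in the labels. The aim given for the series was to find RNAs bound by each microRNA, so the control pulldown is the background for every value. No RNA from before the capture was analysed here, so a change in a transcript's level in the cells and a change in its recovery cannot be told apart.

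The Hippo pathway restrains growth through a chain of kinases. STK3 and STK4 (also called MST2 and MST1), held by the scaffold SAV1 and activated with the help of the membrane-linked tumour suppressor NF2 (Merlin), phosphorylate LATS1 and LATS2. The LATS kinases in turn phosphorylate the coactivators YAP1 and WWTR1 (TAZ), which keeps them out of the nucleus and promotes their breakdown, while free YAP1 and WWTR1 bind TEAD factors and switch on genes such as CCN1 and CCN2. In kidney, as in other epithelia, YAP1 and WWTR1 respond to cell density, stiffness and the cytoskeleton. A microRNA guides Argonaute to transcripts that pair with its seed, bases 2 to 8 from its 5′ end.

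The mature sequences of the bait microRNAs are shown because a microRNA selects a transcript by pairing with its seed. The pair differs in that seed. Sequences are given 5′ to 3′ by name from RefSeq (GRCh38.p14), not from a record of the duplexes, with the seed in capitals. The miR-96-5p sequence was not a bait.
hsa-miR-2355-5p: aUCCCCAGauacaauggacaa
hsa-miR-1271-5p: cUUGGCACcuagcaagcacuca
hsa-miR-96-5p: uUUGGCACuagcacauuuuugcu
The miR-2355-5p sequence lies on the minus strand at chr2:207110043-207110063, inside the span of the protein-coding gene KLF7. The miR-1271-5p sequence lies on the plus strand at chr5:176367960-176367981, inside the span of ARL10. Among 2370 mature microRNA names in the RefSeq table, the miR-2355-5p seed occurred in that microRNA alone, and the miR-1271-5p seed occurred in 2, the other being miR-96-5p, shown for that reason. A DNA-letter match to the seed would read CTGGGGA for miR-2355-5p and GTGCCAA for miR-1271-5p. Transcript sequences were not used here, so none of the 10 genes was searched for these matches, and no value below says that a gene is bound directly.

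Counted reads per library ran from 4122875 (control replicate 2) to 22864693 (control replicate 1). The 10 genes together took 0.125% to 0.153% of them in the controls, 0.150% to 0.152% with miR-2355 and 0.130% to 0.148% with miR-1271. Levels are CPM, read counts scaled to a common library size with TMM (a factor per library that centres most genes), and are compared only within a gene because they are not corrected for length. Tests used edgeR's quasi-likelihood model over all 17351 genes with Benjamini-Hochberg adjustment, and a gene was called at an adjusted p under 0.05. Nothing in the labels says that the replicates were separate cultures, so p-values refer to the spread among libraries and part of that spread may be technical. The table's other IDs are not paired with symbols in the sources used here, so further pathway genes and the markers of the labelled epithelial cell type were not examined.

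With miR-2355, 2 of the 10 genes were higher than with the control duplex, YAP1 and LATS2, and none was lower, beside 29.8% of all tested genes called in either direction (12.3% higher, 17.5% lower). With miR-1271, LATS2 and CCN1 were higher and STK3 was lower, beside 40.2% called among all tested genes (17.6% higher, 22.5% lower). Between the microRNAs, YAP1 alone was called, higher with miR-2355, beside 6.15% of all genes (3.5% higher with miR-2355, 2.65% lower). As shares, 2, 3 and 1 of 10 genes are near these backgrounds, so the counts are no result about the pathway as a group, and what follows concerns its single genes. These backgrounds themselves move: the first was 13.0% with miR-2355 replicate 1 left out, and the third ranged from 1.25% (miR-2355 replicate 2 left out) to 10.1% (control replicate 1 left out). Higher genes made up 41.1%, 43.9% and 57.0% of the calls in the 3 contrasts, against 52.0%, 54.6% and 54.4% with upper-quartile factors and 37.9%, 28.0% and 82.7% with library totals alone. The median log2 fold change of the 10 genes was 0.076 with miR-2355, 0.073 with miR-1271 and 0.066 between them, against medians of -0.0046, 0.0055 and -0.0055 over all tested genes. Both contrasts with the control use the same 3 control libraries.

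**Figure D1:**
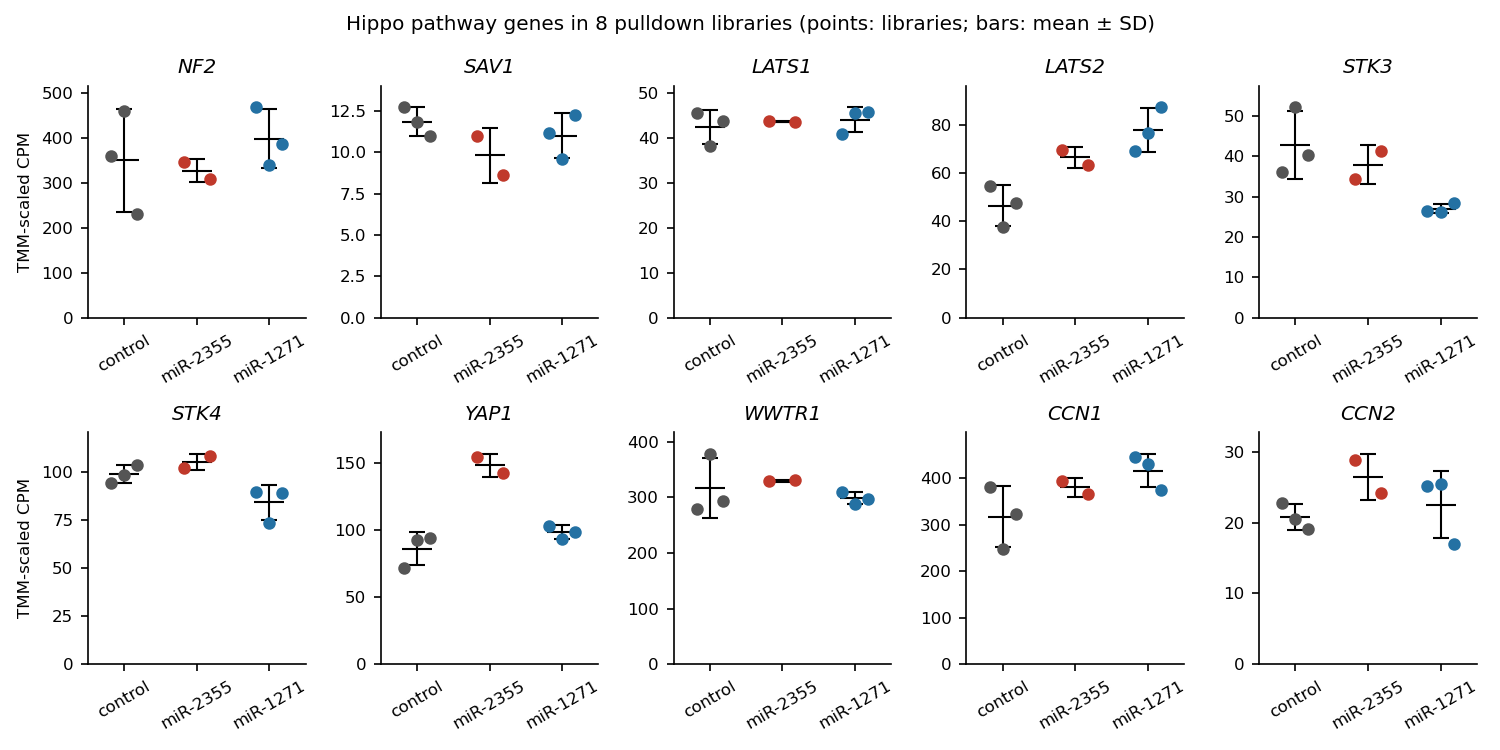
TMM-scaled CPM of each gene in the 8 libraries, by pulldown; points are libraries and bars the mean ± SD (3 control, 2 miR-2355 and 3 miR-1271 libraries). The miR-2355 libraries stand above all others for YAP1, the controls lie below all others for LATS2, and the miR-1271 libraries lie below all others for STK3 and STK4.

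YAP1, the coactivator that carries the pathway's output into the nucleus, had the largest fitted rise of the 10 genes over the control, and it had it with miR-2355. The gene spans chr11:102110447-102233424 (GRCh38.p14; ENSG00000137693). It stood at 71.8, 92.6 and 93.7 CPM in the 3 control libraries, at 154 and 142 CPM with miR-2355, and at 103, 92.9 and 98.6 CPM with miR-1271. Both miR-2355 libraries therefore lay above all 6 others, while the miR-1271 libraries overlapped the controls. The same separation was found for 8.07% of all tested genes. The means were 86.02 ± 12.3 CPM (SD, n = 3) in controls and 148 ± 8.6 CPM (SD, n = 2) with miR-2355, a 1.73-fold rise (log2 fold change 0.79, 95% interval 0.50 to 1.08; edgeR adjusted p = 0.000341). That fold change stood at the 93.9th percentile of all tested genes. Of the 18 alternatives run, every one that left both miR-2355 libraries in kept the call. Adjusted p there ran from 6.04e-07 (DESeq2) to 0.00198 (edgeR with replicate number as a block). A looser threshold of 0.1 was among these alternatives and could not lose a call. The log2 fold change was 0.75 with miR-2355 replicate 1 left out and 0.85 with replicate 2 left out.

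With miR-1271, YAP1 was at 98.2 ± 5.2 CPM (SD, n = 3), a log2 difference from control of 0.20 that was not called (95% interval -0.065 to 0.46; edgeR adjusted p = 0.22). The interval allows a rise of up to 1.37-fold. The difference between the microRNAs was tested directly: YAP1 was 1.51-fold higher with miR-2355 (log2 difference 0.59, 95% interval 0.31 to 0.88; edgeR adjusted p = 0.017). The size of this difference held on leaving out any 1 library, at 0.54 to 0.65. The call did not: with miR-2355 replicate 1 or 2 left out the adjusted p was 0.112 or 0.0814, and with miR-1271 replicate 2 or 3 left out it was 0.0656 or 0.0627. With 1 miR-2355 library left, that library is assumed to vary like the other groups.

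WWTR1, which encodes the YAP1 relative TAZ, was not called in any contrast. Its gene spans chr3:149517235-149724788 (ENSG00000018408). RefSeq places the noncoding genes WWTR1-AS1 and WWTR1-IT1 inside that span, and their reads cannot be told apart from those of WWTR1 where exons overlap. WWTR1 stood at 278, 379 and 294 CPM in the controls, 329 and 332 CPM with miR-2355, and 309.6, 289 and 297 CPM with miR-1271. All 5 microRNA libraries lay within the range of the controls, whose highest value was that of control replicate 2, the shallowest library. The log2 fold change was 0.062 with miR-2355 (95% interval -0.25 to 0.37; edgeR adjusted p = 0.791) and -0.083 with miR-1271 (-0.36 to 0.20; edgeR adjusted p = 0.646). The miR-2355 interval allows at most a 1.29-fold rise. The miR-2355 libraries lay above the miR-1271 libraries without overlap, but the difference of 0.15 on the log2 scale was not called (95% interval -0.16 to 0.46; edgeR adjusted p = 0.599).

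The ratio of YAP1 to WWTR1 reads within a library is free of the scaling between libraries. Its size depends on gene length, so that just its change between groups can be read. It was 0.258, 0.244 and 0.319 in the controls, 0.469 and 0.428 with miR-2355, and 0.333, 0.322 and 0.332 with miR-1271. The 3 groups did not overlap, with controls lowest and miR-2355 highest. The highest control (0.319) and the lowest miR-1271 library (0.322) lay close together, however. The ratio was 1.65-fold higher with miR-2355 than with the control (n = 2 and 3; exact two-sided permutation p = 0.1) and 1.21-fold higher with miR-1271 (n = 3 and 3; exact permutation p = 0.1). Between the microRNAs it was 1.36-fold higher with miR-2355 (n = 2 and 3; exact permutation p = 0.1). These group sizes allow no p below 0.1. Adjusted over the 12 such tests of 4 gene pairs, which were added after the counts had been seen, these p-values were 0.15. The log2 difference of this ratio between miR-1271 and control, 0.27, was 0.20 without control replicate 2 and 0.17 at equal depth. How often ratios of other gene pairs separate without overlap was not computed.

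**Figure D2:**
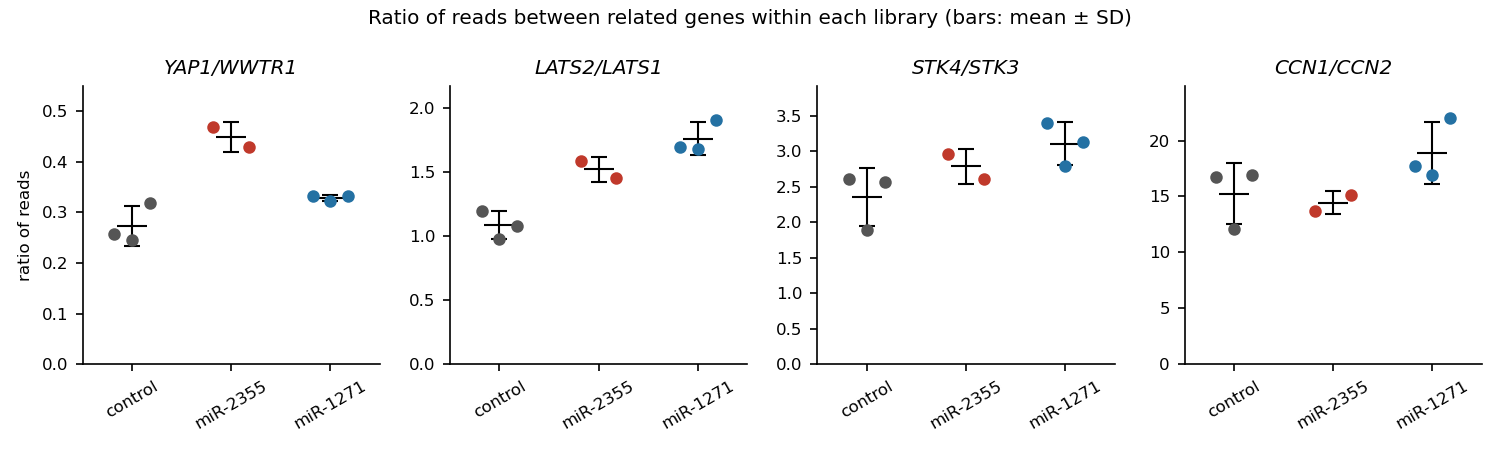
Ratio of reads between related genes within each library, by pulldown; points are libraries and bars the mean ± SD (3 control, 2 miR-2355 and 3 miR-1271 libraries). YAP1/WWTR1 is highest with miR-2355 (0.428 and 0.469), and LATS2/LATS1 is lowest in the controls (0.976 to 1.20).

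LATS2, a kinase that phosphorylates YAP1 and WWTR1 and is itself known as a target gene of YAP1, was higher in both pulldowns. The gene spans chr13:20973036-21061586 (ENSG00000150457). It stood at 54.5, 37.4 and 47.4 CPM in the controls, 69.5 and 63.4 CPM with miR-2355, and 69.1, 76.7 and 87.3 CPM with miR-1271. All 5 microRNA libraries lay above all 3 controls, a separation shown by 14.4% of all tested genes. The means were 46.4 ± 8.6 CPM (SD, n = 3), 66.4 ± 4.4 CPM (SD, n = 2) and 77.7 ± 9.1 CPM (SD, n = 3). The rise was 1.41-fold with miR-2355 (log2 fold change 0.50, 95% interval 0.18 to 0.81; edgeR adjusted p = 0.0199) and 1.65-fold with miR-1271 (log2 fold change 0.72, 95% interval 0.43 to 1.01; edgeR adjusted p = 0.00056).

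The LATS2 rise with miR-1271 was called under all 18 alternatives (adjusted p from 1.13e-05 to 0.00429). Among these, the looser threshold of 0.1 could not lose a call. The rise with miR-2355 was not called without control replicate 3 (log2 fold change 0.50, edgeR adjusted p = 0.0528) or without miR-2355 replicate 1 (0.45, edgeR adjusted p = 0.147). LATS2 was lower with miR-2355 than with miR-1271 by 0.23 on the log2 scale, and these libraries overlapped. The difference was not called (95% interval -0.55 to 0.092, edgeR adjusted p = 0.391), so captured LATS2 RNA is not shown to differ between the microRNAs. The gap of 0.23 was 0.13 with miR-1271 replicate 3 left out.

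LATS1, the sister kinase, was not called in any contrast. The gene spans chr6:149658153-149718101 (ENSG00000131023). The noncoding gene LOC645967 overlaps an end of that span, and its reads cannot be told apart from those of LATS1 where exons overlap. LATS1 stood at 45.5, 38.3 and 43.9 CPM in the controls, 43.8 and 43.7 CPM with miR-2355, and 40.9, 45.7 and 45.8 CPM with miR-1271. The 3 groups overlapped throughout. The log2 fold change was 0.027 with miR-2355 (95% interval -0.24 to 0.29; edgeR adjusted p = 0.902) and 0.040 with miR-1271 (-0.20 to 0.28; edgeR adjusted p = 0.805), and the intervals leave room for a rise of at most 1.23-fold and 1.22-fold. The sign of these values changed without control replicate 2 and, for miR-1271, with library totals alone as the scaling.

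The LATS2 to LATS1 read ratio gives the same contrast within each library. It was 1.20, 0.976 and 1.08 in the controls, 1.59 and 1.45 with miR-2355, and 1.69, 1.68 and 1.91 with miR-1271. The groups did not overlap, and the order was control, miR-2355, miR-1271. The ratio was 1.41-fold higher with miR-2355 (n = 2 and 3; exact permutation p = 0.1, the smallest possible) and 1.62-fold higher with miR-1271 (n = 3 and 3; exact permutation p = 0.1, the smallest possible) than in controls. It was 1.16-fold higher with miR-1271 than with miR-2355 (n = 3 and 2, exact permutation p = 0.1, the smallest possible). Adjusted over the 12 tests of read ratios, an exact permutation p of 0.1 became 0.15. The log2 difference of miR-2355 from miR-1271, -0.21, was -0.11 at equal depth and -0.27 to -0.14 on leaving out 1 library.

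STK3, the MST2 kinase at the head of the cascade, was the one gene of the 10 called lower, and with miR-1271 (ENSG00000104375). It stood at 36.1, 52.2 and 40.2 CPM in the controls, 34.5 and 41.4 CPM with miR-2355, and 26.4, 26.3 and 28.4 CPM with miR-1271. All 3 miR-1271 libraries lay below the other 5, as in 9.69% of all tested genes. The mean fell from 42.9 ± 8.4 CPM (SD, n = 3) to 27.1 ± 1.2 CPM (SD, n = 3), a 1.55-fold fall (log2 fold change -0.64, 95% interval -0.94 to -0.33; edgeR adjusted p = 0.00206). The call was kept under all 18 alternatives, with adjusted p from 0.000124 to 0.012. Among these, the looser threshold of 0.1 could not lose a call.

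With miR-2355, STK3 was at 38.0 ± 4.9 CPM (SD, n = 2), with replicate 2 inside the range of the controls and replicate 1 below it (log2 fold change -0.15, 95% interval -0.48 to 0.18; edgeR adjusted p = 0.504). It was 1.40-fold higher with miR-2355 than with miR-1271 and the libraries did not overlap, but this difference was not called (log2 difference 0.49, 95% interval 0.16 to 0.81; edgeR adjusted p = 0.0719). It passed the threshold of 0.05 in 5 alternatives, among them the fit of those groups alone (edgeR adjusted p = 0.0232) and library totals as the scaling (log2 difference 0.61, edgeR adjusted p = 0.0273). Several short genes and the protein-coding genes KCNS2 and LOC112268016 overlap the long span of STK3 in RefSeq. Their reads cannot be told apart from those of STK3 where exons overlap.

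STK4, the MST1 kinase, was not called in any contrast. The gene spans chr20:44966512-45080021 (ENSG00000101109). It stood at 94.4, 98.6 and 103 CPM in the controls, 102 and 108 CPM with miR-2355, and 89.6, 73.6 and 89.0 CPM with miR-1271. The miR-1271 libraries again lay below the other 5. The log2 fold change with miR-1271 was -0.23 and was not called (95% interval -0.47 to 0.0090; edgeR adjusted p = 0.116), except with library totals alone (-0.38, edgeR adjusted p = 0.0203). It was -0.13 with miR-1271 replicate 2, the lowest library, left out. With miR-2355 it was 0.091 (-0.18 to 0.36; edgeR adjusted p = 0.631). The difference between the microRNAs was 0.32 on the log2 scale (95% interval 0.057 to 0.59) and not called (edgeR adjusted p = 0.134), except with library totals alone (0.45, edgeR adjusted p = 0.0476).

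The STK4 to STK3 read ratio was 2.61, 1.89 and 2.57 in the controls, 2.96 and 2.61 with miR-2355, and 3.40, 2.80 and 3.13 with miR-1271. The miR-1271 libraries lay above the controls, at 1.33-fold on average (n = 3 and 3; exact permutation p = 0.1, the smallest possible). The miR-2355 libraries overlapped both other groups. Their difference from control was 1.19-fold (n = 2 and 3; exact permutation p = 0.5). Control replicate 2, the shallowest library, had the lowest ratio. With it left out, the log2 difference from control fell from 0.41 to 0.26 with miR-1271 and from 0.25 to 0.10 with miR-2355, and for miR-2355 it was 0.16 with its replicate 1 left out.

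SAV1, the scaffold that binds STK3 and STK4, was the least counted of the 10, with 52 to 300 reads per library. The gene spans chr14:50633580-50668306 (ENSG00000151748). It stood at 12.7, 11.9 and 11.00 CPM in the controls, 11.00 and 8.66 CPM with miR-2355, and 11.2, 9.60 and 12.3 CPM with miR-1271. The groups overlapped. The log2 fold change was -0.27 with miR-2355 (95% interval -0.65 to 0.12; edgeR adjusted p = 0.287) and -0.10 with miR-1271 (-0.46 to 0.25; edgeR adjusted p = 0.648). Single libraries decided the size of the first, which was -0.43 with miR-2355 replicate 1 left out and -0.11 with replicate 2 left out.

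NF2, the upstream tumour suppressor, had at least 2018 reads in every library but varied most within its control group. The gene spans chr22:29603556-29698600 (ENSG00000186575). It stood at 359.9, 460.4 and 232 CPM in the controls, 346 and 309 CPM with miR-2355, and 469.6, 339.8 and 387 CPM with miR-1271. All microRNA libraries but miR-1271 replicate 1 lay within the range of the controls, whose coefficient of variation was 32.6%. The log2 fold change was -0.093 with miR-2355 (95% interval -0.55 to 0.37; edgeR adjusted p = 0.789) and 0.19 with miR-1271 (-0.22 to 0.60; edgeR adjusted p = 0.462), the widest intervals of the 10 genes in both contrasts. The first turned to 0.14 without control replicate 2, the highest control, and the second to -0.042 without control replicate 3, the lowest.

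**Figure D3:**
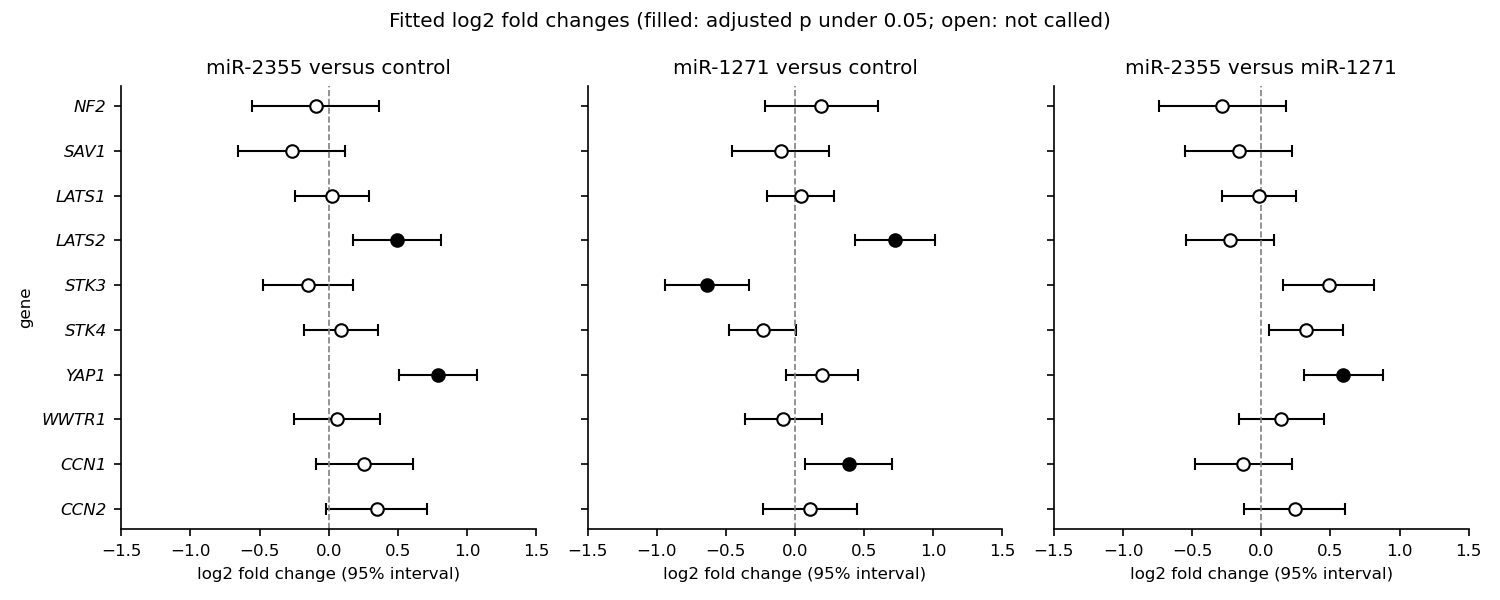
Fitted log2 fold changes of the 10 genes (horizontal axis) with 95% intervals in the 3 contrasts; filled points were called at an adjusted p under 0.05 and open points were not. YAP1 (0.79) and LATS2 (0.50) are called with miR-2355, LATS2 (0.72), CCN1 (0.39) and STK3 (-0.64) with miR-1271, and YAP1 (0.59) between the microRNAs.

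CCN1 (CYR61) and CCN2 (CTGF) encode secreted matrix proteins and are widely used as readouts of YAP1 and WWTR1 activity. CCN1 spans chr1:85580761-85583950 (ENSG00000142871). It stood at 380.3, 248 and 324 CPM in the controls, 395 and 366 CPM with miR-2355, and 444, 429 and 375 CPM with miR-1271. The highest control, replicate 1, lay above the lowest library of each microRNA, so the groups overlapped. CCN1 was 1.31-fold higher with miR-1271 (416 ± 36.4 CPM against 317 ± 66.4 CPM, SD, n = 3 each; log2 fold change 0.39, 95% interval 0.073 to 0.70; edgeR adjusted p = 0.0476).

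This CCN1 call lay at the threshold and was lost in 8 of 18 alternatives. Without control replicate 2, the lowest and shallowest control, the log2 fold change was 0.24 (edgeR adjusted p = 0.194), and with library totals alone it was also 0.24 (edgeR adjusted p = 0.208). It was also lost without control replicate 3 (edgeR adjusted p = 0.103), miR-1271 replicate 1 (0.141), miR-1271 replicate 2 (0.101) or miR-2355 replicate 2 (0.0574), without the low-count filter (0.0564) and at equal depth (0.0519). With miR-2355 the log2 fold change was 0.26 and not called (95% interval -0.091 to 0.61; edgeR adjusted p = 0.259; 0.41 and 0.11 with control replicate 1 or 2 left out), and the microRNAs differed by -0.13 (-0.48 to 0.22; edgeR adjusted p = 0.694).

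CCN2 spans chr6:131948176-131951372 (ENSG00000118523). It stood at 22.7, 20.5 and 19.2 CPM in the controls, 28.8 and 24.2 CPM with miR-2355, and 25.1, 25.4 and 17.04 CPM with miR-1271. Both miR-2355 libraries lay above the controls, while miR-1271 replicate 3 was the lowest of all 8 libraries. The log2 fold change was 0.35 with miR-2355 (95% interval -0.019 to 0.71; edgeR adjusted p = 0.145) and 0.11 with miR-1271 (-0.23 to 0.45; edgeR adjusted p = 0.63), and neither was called. RefSeq places the noncoding gene CCN2-AS1 over the same interval. The strand setting of the counting is not given in the sources used here, so reads of CCN2 and of an antisense transcript cannot be told apart.

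The CCN1 to CCN2 read ratio was 16.7, 12.1 and 16.9 in the controls, 13.7 and 15.1 with miR-2355, and 17.7, 16.9 and 22.02 with miR-1271. The microRNA groups did not overlap, with the ratio 1.30-fold higher with miR-1271 than with miR-2355 (n = 3 and 2; exact permutation p = 0.1, the smallest possible). Against the controls, the ratio with miR-1271 differed 1.24-fold (n = 3 and 3; exact permutation p = 0.2). That log2 difference of 0.31 fell to 0.16 with control replicate 2 left out and to 0.20 with miR-1271 replicate 3 left out.

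Without overlap between groups were 3 of the 10 genes for miR-2355 against control (YAP1, LATS2 and CCN2, all above), beside 52.7% of all tested genes, 24.9% above and 27.8% below. For miR-1271 against control they were LATS2 above and STK3 and STK4 below, again 3 of 10, beside 49.9% of all genes, 23.1% above and 26.8% below. Between the microRNAs they were STK3, STK4, YAP1 and WWTR1, 4 of 10, all higher with miR-2355, beside 41.5% of all genes, 21.1% higher and 20.5% lower. The fold changes of the 10 genes lay between -0.27 and 0.79 with miR-2355 and between -0.64 and 0.72 with miR-1271 on the log2 scale. None of the 10 reached a 2-fold change in any of the 3 contrasts.

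**Figure D4:**
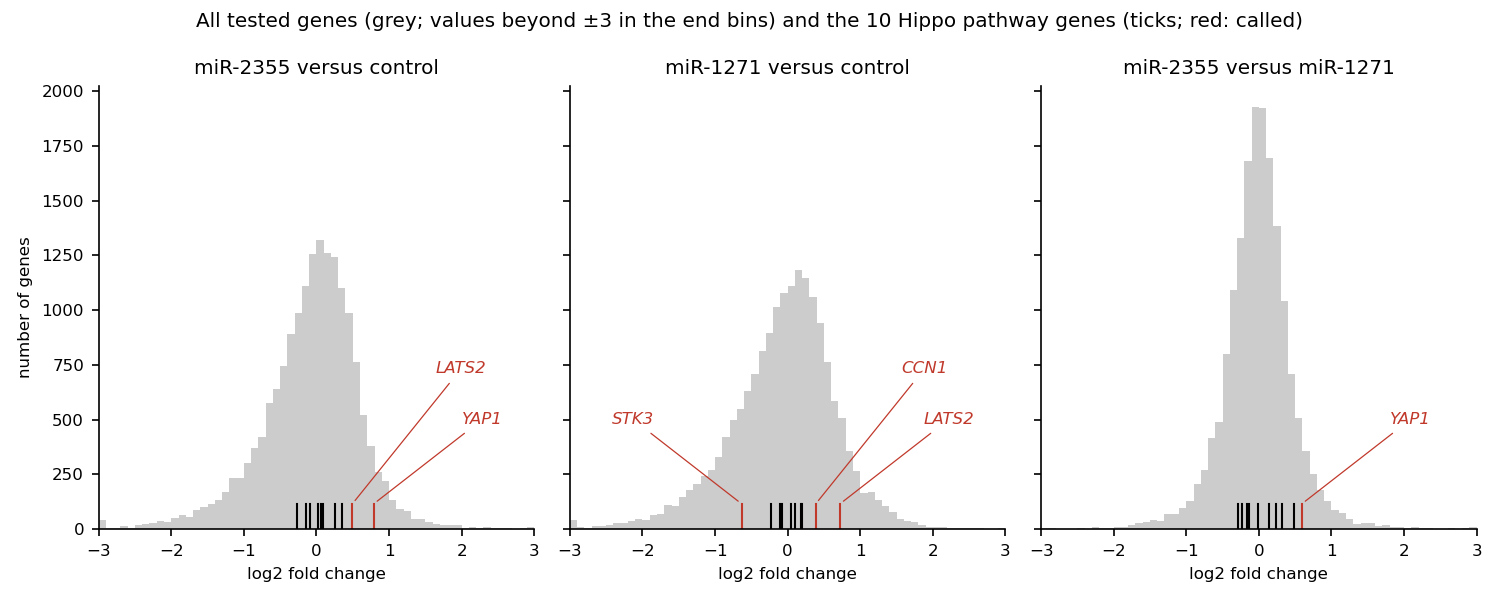
Number of tested genes (vertical axis) by log2 fold change (horizontal axis) in each contrast, with ticks at the 10 Hippo pathway genes; red ticks are called genes. YAP1 lies at the 93.9th percentile with miR-2355, LATS2 at the 89.4th and STK3 at the 18.8th with miR-1271, all within the body of the distribution.

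Among the 10 genes, the highest Pearson r over the 8 libraries on the log2 scale was that of LATS2 and CCN1, at 0.84 (Spearman rho 0.64). By Spearman rho, STK3 and STK4 came first among the nearest pairs, at 0.79 (Pearson r 0.72). The nearest gene to YAP1 was CCN2, with a Pearson r of 0.48 (Spearman rho 0.40). For NF2 the nearest was WWTR1, with a Pearson r of 0.40 (Spearman rho 0.24). For SAV1 it was NF2, with a Pearson r of 0.37 but a Spearman rho of 0.69. These values describe 8 libraries that share group differences and depth, and they carry no test.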

How the data were processed

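The authors deposited raw read counts per Ensembl gene ID, 1 column per library; the submitters' processing notes name BWA, featureCounts and hg38/GRCh38, without versions. The sources used here give neither the annotation release nor the strand setting. The 8 columns were matched to samples by title and grouped as 3 control, 2 miR-2355 and 3 miR-1271 libraries. Genes were filtered with filterByExpr, scaled by TMM and fitted in 1 edgeR 4.0.16 quasi-likelihood model (R 4.3.3) over all 8 libraries. Intervals of fold changes are 95% intervals from the fit's approximate standard errors, which cover the spread between libraries, and read counts carry no molecular identifiers. All 10 genes were named by rule, under the symbols that came with their IDs; positions come from RefSeq by symbol (10 matched), since 0 IDs of the count table matched its Ensembl column. The planned lists of further pathway genes and cell type markers were therefore left out. The genes and lists were chosen with earlier results of these data known. The fitting code was run on simulated counts with the same dispersion for every gene and library. That setting is simpler than these libraries, so the run does not bear on the calls reported here. Replicates differed by more than sampling noise in each pair (chi-square per degree of freedom 5.79 to 20.9), so none was merged. Alternatives used DESeq2 1.42.0, limma 3.58.1 (voom), other scalings and filters, equal depth and single libraries left out.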

Additional observations from a re-analysis of the deposited data

Results flagged for a closer look

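In the main fit, YAP1 was the 1 gene of the 10 whose effect differed between the microRNAs by the test of the difference itself. Its rise over control was larger with miR-2355 than with miR-1271 by 0.59 on the log2 scale (edgeR adjusted p = 0.017), with both miR-2355 libraries above all 3 miR-1271 libraries. The value was 0.54 to 0.65 on leaving out 1 library and 0.58 to 0.72 under the other scalings. The call was less stable, and was lost with miR-1271 replicate 2 or 3 left out (edgeR adjusted p = 0.0656 or 0.0627). Leaving out either miR-2355 library leaves 1, too few to rest a call on. STK3 was not called in the main fit but was in some alternatives, such as the 2 groups fitted alone (edgeR adjusted p = 0.0232).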

How the results depend on the processing

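Over 18 alternatives and 30 values (10 genes in 3 contrasts), 503 of 540 values kept their direction and side of the threshold. Only 6 of the 30 were called in the main fit, so most of the 503 were uncalled values that stayed uncalled. Of the rest, 14 lost a call, 8 gained one and 15 changed sign. Genes higher with miR-1271 numbered 1, not 2, with library totals alone, without a low-count filter and at equal depth, CCN1 being lost each time, and genes lower numbered 2 with library totals alone, which added STK4. Genes higher with miR-2355 than with miR-1271 numbered 3 with library totals alone (STK3 and STK4 added), and 2 (STK3 added) without a low-count filter, with the 2 groups fitted alone or at an adjusted p under 0.1. Leaving out 1 library gave 1 to 2 higher genes in each contrast with the control and 0 to 2 between the microRNAs. Signs turned only for values that were not called: WWTR1 with miR-1271 under upper-quartile factors (0.018), LATS1 (-0.11) and CCN2 (-0.044) with miR-1271 under library totals, LATS1 between the microRNAs under library totals (0.11), without a low-count filter (0.025) and with the replicate block (0.0086), and SAV1 between the microRNAs at equal depth (0.0023). On leaving out 1 library, the range crossed 0 with miR-2355 for NF2 (-0.32 to 0.14), LATS1 (-0.034 to 0.073) and WWTR1 (-0.025 to 0.20), with miR-1271 for NF2 (-0.042 to 0.43), LATS1 (-0.020 to 0.10) and WWTR1 (-0.17 to 0.059), between the microRNAs for LATS1 (-0.055 to 0.021), and for the CCN1 to CCN2 ratio with miR-2355 (-0.22 to 0.020). The causes were not tested. Upper-quartile factors moved the median of all genes to 0.075 and 0.10 in the contrasts with the control, and library totals moved it to -0.14 with miR-1271 and to 0.12 between the microRNAs.

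The replicate numbers are not stated to mark a shared culture or day. Deviations of same-numbered libraries correlated at -0.10 to 0.019, and so few libraries per group cannot settle whether more than a number was shared. Control replicates 1 and 3 correlated better with another number of miR-1271 than with their own. With the replicate block, no call among the 10 genes changed (YAP1 between the microRNAs 0.63, edgeR adjusted p = 0.045; CCN1 with miR-1271 0.40, edgeR adjusted p = 0.0494). Over all genes the block lowered the calls between the microRNAs from 608 higher and 459 lower to 320 and 217. Depth was lowest in control replicate 2, where SAV1 had 52 reads.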
